A study of Mus musculus with 6 samples.

Results

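Ion channels and exchangers of endosomes and lysosomes were followed in RNA sequencing of skull osteoblast cultures, as 10 genes of the 17830 in the deposited table: Mcoln1, Mcoln2, Mcoln3, Tpcn1, Tpcn2, Tmem175, Clcn7, Ostm1, Clcn5 and Clcn3. The members were found by gene symbol, and all 10 were present and passed the filter on low counts. The family was chosen because Mcoln3 was among the genes with the largest reduction in APPswe libraries, so the values of Mcoln3 are given as a description without a test. The other 9 genes were chosen for their function, with earlier results of these data known. The study asked how osteoblasts that express APPswe differ from control osteoblasts. The 3 control libraries came from mOCN-Cre; Ai9 mice and the 3 APPswe libraries from TgAPPswemOCN-Cre; Ai9 mice, all at 6 months of age. Both groups carried the mOCN-Cre allele, a knock-in that makes Cre together with osteocalcin from the endogenous Bglap gene, and Ai9, which turns on the red protein tdTomato after Cre has acted. The APPswe mice also carried a human APP transgene with the Swedish mutations under the CAG promoter, silent until Cre removes a stop cassette. Cells that grew out of calvarial bone fragments were cultured and sorted for tdTomato before RNA extraction. Nothing in the sample descriptions says whether the libraries of a group came from separate animals or cultures, so p-values measure the spread between these libraries, which may be technical.

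Endosomes and lysosomes acidify as the vacuolar proton pump imports protons, and channels and exchangers in their membranes move the accompanying ions. The mucolipins (TRPML channels, encoded by Mcoln1, Mcoln2 and Mcoln3) and the TPC channels (Tpcn1 and Tpcn2) release calcium or sodium and are opened by the lipid PI(3,5)P2, and Tmem175 conducts potassium and protons. The CLC exchangers trade chloride for protons. Among them Clcn7, with its subunit Ostm1, is known in bone because the osteoclast needs the pair to dissolve mineral, and loss of either gene causes osteopetrosis.

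Total counts lay between 17263757 and 18398392 per library, so that 3 counts, taken as the floor of detection, corresponded to at most 0.173 CPM, the counts divided by library totals after TMM normalization in edgeR. This floor covers counting error only. Control replicate 2 stood apart from the other libraries. It held 2 counts over 4 Y-linked genes, against 2257 to 3406 in each other library, although the study draws male mice, and 1 count of the osteocalcin gene Bglap, against 115 to 204. Macrophage markers were abundant in all libraries labelled osteoblast, with a summed level of 16780 to 23010 CPM over 13 genes in control and 11750 to 12680 CPM in APPswe libraries. The sum over 12 osteoblast markers was 20390 to 21420 CPM in control and 16340 to 17210 CPM in APPswe libraries, and their median was 1.91 CPM in control replicate 2 and 32.7 to 44.1 CPM elsewhere. Of these markers, 3 rose (Sp7, Runx2 and Sparc) and 1 fell (Spp1) in edgeR at an adjusted p up to 0.05. Among all genes 10.5% rose and 12.0% fell. Spp1 was at 9315, 6092 and 9106 CPM in control and at 3691, 3472 and 3544 CPM in APPswe libraries. Skeletal muscle markers summed to 2.66 to 12.3 CPM in control and 175 to 179 CPM in APPswe libraries, and osteoclast markers to 214 to 346 and 772 to 788 CPM. Neutrophil markers summed to at most 1.56 CPM in any library. Mouse App had 17020 to 22893 counts in control and 18100 to 18818 counts in APPswe libraries, and the groups overlapped. The transgene's own reads have no row in the table, so App checks no genotype label. In such bulk libraries, fewer cells of a type and less RNA per cell cannot be told apart.

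Mcoln3 and Mcoln2 are neighbours on chromosome 3, at chr3:146093277-146141808 and chr3:146149796-146195514 in GRCm38, separated by 7988 bases, whereas Mcoln1 lies at chr8:3500519-3515232 and Clcn7 at chr17:25133378-25162103. Tpcn1 and Tmem175 are on chromosome 5, Tpcn2 on 7, Clcn3 on 8, Ostm1 on 10 and Clcn5 on X. RefSeq promoter windows of 300 bases (250 before and 50 after a start, build GRCm38.p6) were found for 9 of the 10 members and not for Tpcn1. They were searched for CACGTG, which reads the same on both strands and is the core of the CLEAR element bound by the lysosomal regulator TFEB. Of the 9 members with a window, 3 held it (Mcoln1, Mcoln2 and Clcn7), as did 11.6% of the 10731 tested genes with a window. These 3 fell in APPswe libraries. Ostm1 also fell and Mcoln3 was lower there, and neither of their windows held CACGTG. A longer form of the motif was in no window of a member and in 0.33% of the 32851 windows searched. Not all of the CACGTG sites in Mcoln1, Mcoln2 and Clcn7 lie upstream of every annotated exon. The Mcoln2 window begins in an annotated exon, and the second Mcoln1 site lies past the point where one begins. The second Clcn7 site begins 7 bases after the RefSeq start on which the window was placed. The span of Clcn7 given above begins ahead of that start, at chr17:25133378, inside the first CACGTG. The sites are shown with CACGTG in capitals, at chr8:3500436-3500465 and chr8:3500462-3500491 for Mcoln1, chr3:146150090-146150119 for Mcoln2, and chr17:25133364-25133393 and chr17:25133386-25133415 for Clcn7, all on the plus strand.
Mcoln1, first site: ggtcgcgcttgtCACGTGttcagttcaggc
Mcoln1, second site: aggcgccccgctCACGTGaccgcggcgcat
Mcoln2: tccctgagctcaCACGTGgaccccattctg
Clcn7, first site: tccgtcgtcagtCACGTGggcaccgatgat
Clcn7, second site: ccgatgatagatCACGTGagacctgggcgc

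The window of Mcoln3 held no CACGTG. The 131 bases of it that end where a GENCODE exon of the gene begins, chr3:146121541-146121671 on the plus strand, are shown because Mcoln3 differed most between the genotypes. They lie inside the annotated span of the gene, which has other exons further upstream. A match describes letters in a window and an absent match says only that these letters are not there.
Mcoln3: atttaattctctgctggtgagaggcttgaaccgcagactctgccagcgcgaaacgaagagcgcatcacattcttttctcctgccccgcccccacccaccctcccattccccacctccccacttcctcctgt

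Mcoln3 (NCBI gene 171166) encodes TRPML3, a channel of early and late endosomes known from the deaf and pigment-deficient varitint-waddler mouse. Control replicates 1, 2 and 3 yielded 669, 45 and 613 counts of it, and the APPswe replicates in the same order 18, 17 and 15. Both groups were measured above the floor of 3 counts, and the lowest control library was 2.51-fold above the highest APPswe library. Control replicate 2 lay far below the other controls, with a 15.3-fold range within that group against 1.20-fold in APPswe libraries. Control libraries averaged 25.3 ± 19.8 CPM and APPswe libraries 0.933 ± 0.0840 CPM (SD, n = 3 each), and the fitted log2 fold change was -4.75. Without control replicate 2 it was -5.28. The library names are written in different styles, one for control replicates 1 and 2 and APPswe replicate 1, the other for the remaining libraries. The difference in log2 CPM was -3.26 within the first style and -5.23 within the second. The control side of the first style held control replicate 2 (2.53 CPM) beside control replicate 1 (38.6 CPM). Control replicate 2 was the only library with an S in its name (Ctrl-S), where the others have an L. The labels do not explain these letters. By log2 fold change Mcoln3 stood eleventh from the bottom of the 13484 genes tested. Its neighbours were sought among genes passing edgeR's test, with absolute log2 fold change and mean log2 CPM both at least 1. In the order of all genes tested, these neighbours, Grm4 (-4.77) and Slco4a1 (-4.50), stood at places 9 and 14.

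The 5 genes whose log2 CPM, centred on each gene's mean, lay closest to that of Mcoln3 over the 6 libraries were LOC115488503, Fgf10, Adgrl4, Angpt2 and Gm40814. Their root mean square differences from Mcoln3 were between 0.379 and 0.683, among 12335 genes compared. Each was high in control replicates 1 and 3 and low in control replicate 2 and in the APPswe libraries. Angpt2, a ligand of the endothelial receptor Tie2, was at 44.4, 1.74 and 47.1 CPM in control and at 1.79, 2.23 and 2.42 CPM in APPswe libraries, and Adgrl4, an adhesion receptor of endothelial cells, at 16.1, 0.562 and 13.9 CPM and at 0.785, 0.724 and 0.393 CPM. Fgf10, a fibroblast growth factor, was at 43.7, 4.61 and 36.5 CPM in control and at most 1.29 CPM in APPswe libraries. Genes nearest in pattern were chosen by these same values, so they are a description.

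Markers of endothelial cells, like Mcoln3, were high in control replicates 1 and 3 and lower in the APPswe libraries. The summed level of 6 of them was 211, 27.7 and 223 CPM in control replicates 1, 2 and 3, and 12.9, 12.0 and 14.0 CPM in APPswe libraries. Most of the sum in control replicate 2 was Kdr, and without it the other 5 summed to 200.4, 2.25 and 209.9 CPM in control and 10.0, 9.14 and 10.8 CPM in APPswe libraries. The defining marker Cdh5, the cadherin of endothelial junctions, had 1009, 6 and 1126 counts in control libraries and 32, 22 and 26 in the APPswe ones, and Pecam1 had 827, 1 and 895 against 31, 43 and 54. Kdr, the VEGF receptor, departed from this order with 453 counts in control replicate 2, more than in either other control. It was the only one of the 5 tested endothelial markers that passed edgeR's test (log2 fold change -2.45, adjusted p = 0.00503), where 22.5% of all genes passed; DESeq2 passed 4 of them. In control replicate 2 each of the 5 other markers was below every APPswe library, whereas Mcoln3, with 45 counts, was above them. The part of endothelial cells in the Mcoln3 difference was not tested.

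The melanocyte list, of which 5 genes were in the table, was likewise high in control replicates 1 and 3 and low in the other libraries, with a summed level of 16.9, 4.27 and 19.6 CPM in control and 3.87, 4.96 and 4.83 CPM in APPswe libraries. Most of it was Sox10, a factor of melanocytes and Schwann cells, with 254, 62 and 308 counts in control and 50, 65 and 64 in APPswe libraries (by edgeR, adjusted p = 0.0562). The pigment cell marker Mlana had 20, 0 and 19 counts against 1, 0 and 1. Pmel had 13 to 21 counts in every library, Tyr at most 3, and Tyrp1 was at 0 in all. Neither of the 2 tested genes, Sox10 and Pmel, passed edgeR's test, with 1 at an unadjusted p under 0.05 and 1 passing in DESeq2. The part of such cells in the Mcoln3 difference was not tested.

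**Figure D1:**
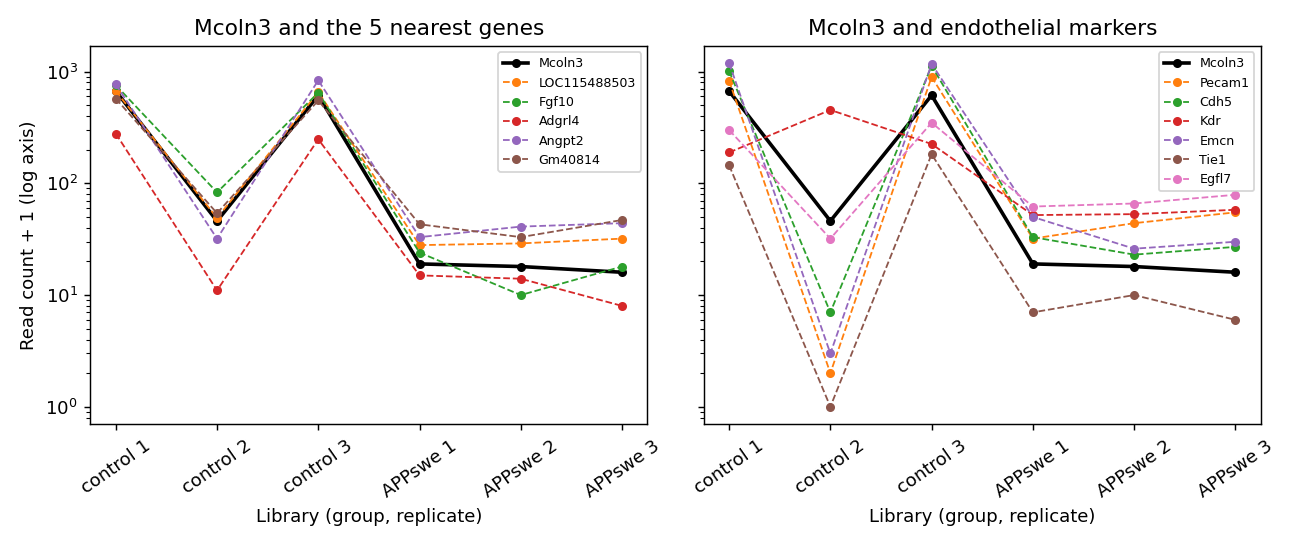
Read counts plus 1 (log axis) per library for Mcoln3 (black) beside the 5 genes nearest to it in pattern (left) and 6 endothelial markers (right); lines only join the values of one gene. Mcoln3 had 669 and 613 counts in control replicates 1 and 3, 45 in control replicate 2 and 15 to 18 in APPswe libraries, and Pecam1 and Cdh5 had 1 and 6 counts in control replicate 2.

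Mcoln2 was the only tested neighbour of Mcoln3 on chromosome 3 that fell. Among the other genes within 200 kb, Bcl10 and 2410004B18Rik had log2 fold changes of 0.06 and 0.08 (by edgeR, adjusted p = 0.558 and 0.701). Ddah1, which clears a nitric oxide synthase inhibitor, rose by 0.49 (by edgeR, adjusted p = 0.0158), and Syde2 had a log2 fold change of 0.71 (by edgeR, adjusted p = 0.131). Ddah1 did not pass in any fit without one library other than control replicate 2 (adjusted p = 0.0506 to 0.0742). Wdr63, whose locus overlaps that of Mcoln3 by 14824 bases, had between 1 and 7 counts per library. These genes were named after their values were seen.

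Mcoln2 and Mcoln1, the other mucolipins, fell with smaller fold changes than that of Mcoln3. Mcoln2 encodes TRPML2, a channel of recycling endosomes known in macrophages and lymphocytes. It was counted 733, 578 and 693 times in control and 361, 370 and 381 times in APPswe libraries. The groups did not overlap, and the mean fell from 38.0 ± 5.02 to 20.8 ± 0.597 CPM (SD, n = 3 each). In edgeR the log2 fold change was -0.87 ± 0.12 (SE, adjusted p = 0.00395), and Mcoln2 passed in all 16 alternatives, with adjusted p-values up to 0.0317.

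Mcoln1 encodes TRPML1, the lysosomal calcium channel lost in mucolipidosis type IV. It had 1062, 1040 and 1199 counts in control and 733, 860 and 876 counts in APPswe libraries, again without overlap. Its mean fell from 62.5 ± 4.71 to 46.1 ± 4.36 CPM (SD, n = 3 each), and edgeR gave a log2 fold change of -0.44 ± 0.10 (SE, adjusted p = 0.0250). Mcoln1 did not pass in any of the 5 fits that left out a library other than control replicate 2, with adjusted p-values between 0.0588 and 0.0888.

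Per length, Mcoln3 made up 22.6%, 2.20% and 20.1% of the summed FPKM (the deposited level scaled by transcript length and library total) of the 3 mucolipins in control replicates 1, 2 and 3, and 1.29%, 1.01% and 1.06% in APPswe libraries. Mcoln1 held the largest share in every library, at 50.5% to 68.7% in control and 71.6% to 74.5% in APPswe libraries, while Mcoln2 held 24.6% to 29.1% and 24.5% to 27.1%. The FPKM ratio of Mcoln1 to Mcoln2 was 1.88, 2.36 and 2.25 in control and 2.64, 3.04 and 3.01 in APPswe libraries. All 3 APPswe ratios were above all control ratios, a difference in log2 ratio of 0.42. An exact permutation test, two-sided, gave p = 0.1 for this ratio, the smallest that 3 against 3 libraries allow.

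The TPC channels moved in opposite directions. Tpcn1, found on early and recycling endosomes, had 1282, 1677 and 1520 counts in control and 917, 1149 and 1032 counts in APPswe libraries. It fell from 84.7 ± 10.2 to 57.8 ± 6.30 CPM (SD, n = 3 each), and edgeR gave a log2 fold change of -0.55 ± 0.12 (SE, adjusted p = 0.0217). Tpcn2, found on late endosomes and lysosomes, had 802, 795 and 824 counts in control and 954, 1047 and 981 counts in APPswe libraries. It rose from 45.8 ± 0.999 to 55.6 ± 2.46 CPM (SD, n = 3 each), and edgeR gave a log2 fold change of 0.28 ± 0.07 (SE, adjusted p = 0.0358). Both pairs of groups were apart, and Tpcn2 was the only member that rose past the test.

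Both results depended on single libraries. For Tpcn1 the adjusted p was 0.0582 without control replicate 3 and 0.0833, 0.0549 and 0.0911 without APPswe replicates 1, 2 and 3. For Tpcn2 it was 0.0718 to 0.156 in each of the 5 fits without a library other than control replicate 2, and 0.0818 with the replicate number as a block. In FPKM the ratio of Tpcn1 to Tpcn2 was 1.04, 1.38 and 1.20 in control and 0.626, 0.725 and 0.687 in APPswe libraries, so Tpcn1 was the more abundant of the pair in every control library and Tpcn2 in every APPswe library. The difference in log2 ratio was -0.82 (exact permutation test, two-sided, p = 0.1, the smallest possible).

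Tmem175, the potassium and proton channel of lysosomes and a risk locus of Parkinson's disease, had 568, 461 and 571 counts in control and 590, 645 and 603 counts in APPswe libraries. In CPM all APPswe libraries were above all controls (30.3 ± 3.82 against 34.3 ± 1.47, SD, n = 3 each), but the log2 fold change of 0.18 (standard error 0.11) did not pass edgeR's test (adjusted p = 0.294).

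Clcn7, the lysosomal chloride and proton exchanger, and Ostm1, the subunit that stabilizes it, both fell. Clcn7 had 3612, 3572 and 4175 counts in control and 2362, 2674 and 2556 counts in APPswe libraries. The lowest control exceeded the highest APPswe library 1.35-fold in CPM. Its mean fell from 215 ± 18.3 to 142 ± 8.44 CPM (SD, n = 3 each), and edgeR gave a log2 fold change of -0.60 ± 0.09 (SE, adjusted p = 0.00610), and it passed in all 16 alternatives, with adjusted p-values up to 0.0416.

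Ostm1 had 1620, 1511 and 1555 counts in control and 1221, 1213 and 1158 counts in APPswe libraries. It fell from 88.7 ± 4.39 to 67.0 ± 1.76 CPM (SD, n = 3 each), and edgeR gave a log2 fold change of -0.40 ± 0.07 (SE, adjusted p = 0.0100). Without APPswe replicate 2 or 3 its adjusted p was 0.0635 or 0.0684. The FPKM ratio of Clcn7 to Ostm1 was 1.63, 1.72 and 1.96 in control and 1.41, 1.60 and 1.61 in APPswe libraries. The groups were separated by a narrow gap, with a difference in log2 ratio of -0.20 (exact permutation test, two-sided, p = 0.1). Over these 3 ratios, chosen after the values were seen, the Benjamini-Hochberg adjusted p was 0.1 for each.

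Clcn5 and Clcn3 are exchangers of endosomes, and Clcn5 is the gene of Dent disease, a disorder of the kidney tubule. Clcn5 had 589, 734 and 554 counts in control and 541, 484 and 440 counts in APPswe libraries. Its level was 35.5 ± 5.16 and 27.3 ± 2.82 CPM (SD, n = 3 each), and edgeR gave a log2 fold change of -0.38 ± 0.13 (SE, adjusted p = 0.0894). Clcn3 had 544, 601 and 524 counts in control and 523, 514 and 516 counts in APPswe libraries, and edgeR gave a log2 fold change of -0.12 ± 0.09 (SE, adjusted p = 0.330). Neither passed the test, and the gap between the groups in CPM was 1.03-fold for Clcn5 and 1.01-fold for Clcn3.

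Of the 9 members other than Mcoln3, 6 passed edgeR's test at an adjusted p of at most 0.05, 5 lower and 1 higher, where 22.5% of all 13484 genes tested passed (12.0% lower and 10.5% higher). Without an adjustment, 7 had a p under 0.05. None of the 9 reached an absolute log2 fold change of 1 in edgeR, in DESeq2 or in any other alternative, so none was called by the joint threshold, which 7.34% of all genes met (3.60% lower and 3.74% higher). In CPM the groups were apart for all 9, 7 lower and 2 higher, as they were for 45.0% of all genes (22.2% lower and 22.8% higher). The median log2 fold change of the 9 was -0.41, against -0.0033 over all genes tested. The number passing was 6 without control replicate 2, when 48.3% of all genes passed, and 2 without APPswe replicate 2 or 3, when 7.59% and 7.45% of all genes did. It was 3 without control replicate 3 or APPswe replicate 1 and 4 without control replicate 1. The 9 log2 differences kept their sign within both styles of library name, which follows from groups that do not overlap in CPM. The first style held only APPswe replicate 1 on the APPswe side, and the second only control replicate 3 on the control side.

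**Figure D2:**
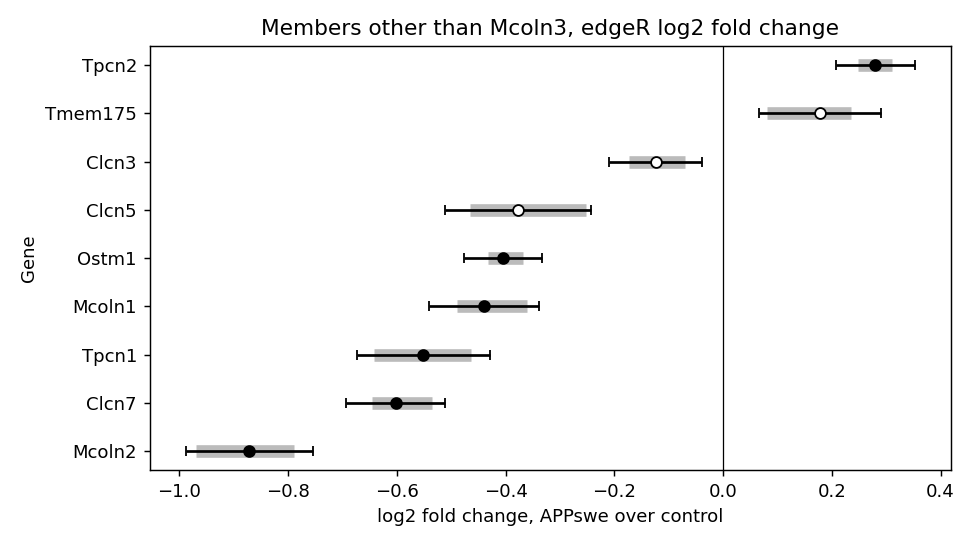
edgeR log2 fold change of APPswe over control for the 9 members other than Mcoln3 (points, filled where the adjusted p was at most 0.05), with standard errors (whiskers) and the range when each library was dropped in turn (grey bars). The values run from -0.87 for Mcoln2 to 0.28 for Tpcn2. No grey bar crosses 0, and groups without overlap in CPM leave little room for a crossing.

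**Figure D3:**
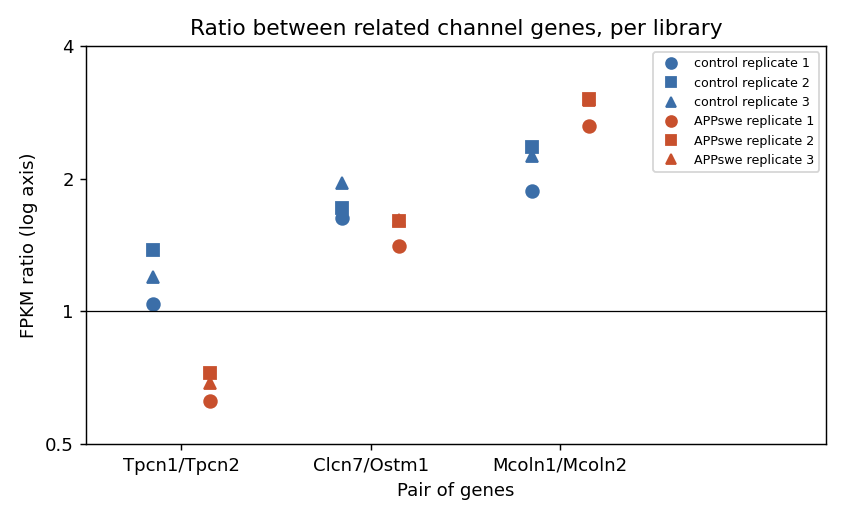
Ratio of deposited FPKM values between related genes (log axis) in each of the 3 control and 3 APPswe libraries. Tpcn1 over Tpcn2 lies above 1 in every control library (1.04 to 1.38) and below 1 in every APPswe library (0.626 to 0.725), a wider gap than for Clcn7 over Ostm1.

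In order of FPKM, which allows genes of different length to be compared, Clcn7 was the most abundant member in both groups, at 55.5 ± 4.28 in control and 38.4 ± 2.01 in APPswe libraries (SD, n = 3 each). Mcoln1 (34.9 ± 2.39 and 27.1 ± 2.33 FPKM) and Ostm1 (31.4 ± 1.64 and 25.0 ± 0.843 FPKM) followed, and their ranges overlapped in both groups. In control libraries Tpcn1, Mcoln2 and Tpcn2 came next at 19.4, 16.3 and 16.1 FPKM, and neighbours in this order overlapped. Tmem175 was at 14.3 ± 0.776 FPKM and Mcoln3 at 10.0 ± 7.83 FPKM, a spread that reached past Tmem175 above and Clcn3 below. Clcn3 (6.05 FPKM) and Clcn5 (4.16 FPKM) were lowest. In APPswe libraries the order after Ostm1 was Tpcn2 (20.7), Tmem175 (16.9), Tpcn1 (14.1), Mcoln2 (9.35), Clcn3 (5.82), Clcn5 (3.36) and Mcoln3 (0.410 FPKM), and no neighbours among these overlapped. Mcoln3 thus stood above both endosomal CLC exchangers in control replicates 1 and 3, and below every other member in control replicate 2 and in all APPswe libraries.

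**Figure D4:**
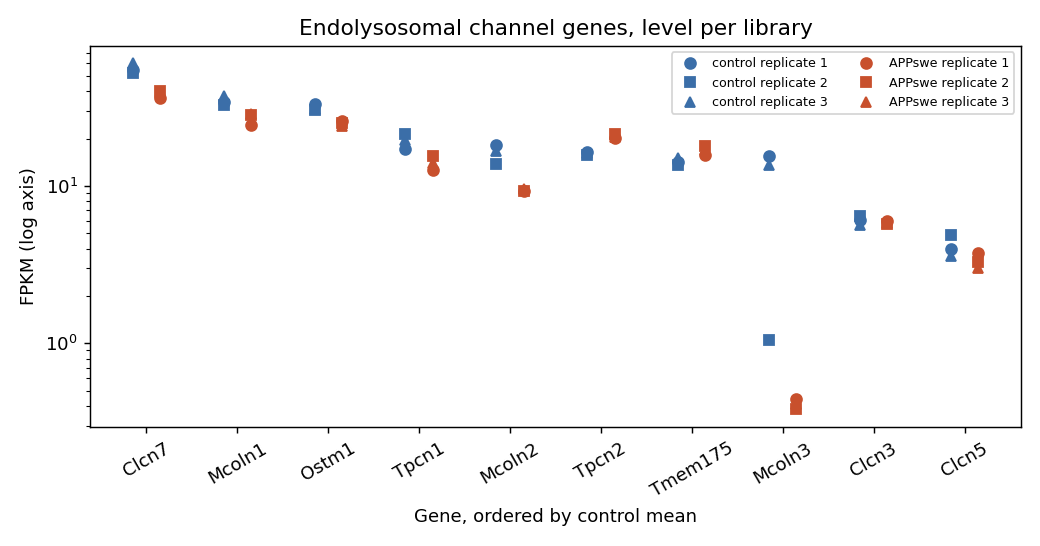
Deposited FPKM (log axis) of the 10 members in each library, ordered by control mean; colours mark the genotype and shapes the replicate. Mcoln3 spans 1.05 to 15.4 FPKM in control and 0.38 to 0.44 FPKM in APPswe libraries, and the points of the other members lie closer together within each group.

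Genes of related function, osteopetrosis genes and common lysosomal genes were followed in 6 lists. Of their 50 tested genes 16 passed edgeR's test (32.0%), 13 lower and 3 higher, against 22.5% of all genes (12.0% lower and 10.5% higher). The 9 common lysosomal genes gave 7 of those lower, and the 6 tested osteopetrosis genes gave 1 lower and 2 higher. The number passing over the 6 lists was 25 without control replicate 2, when 48.3% of all genes passed. It was 10 without APPswe replicate 2 or 3, when 7.59% and 7.45% did. Among 13 other endolysosomal channels and exchangers, 2 fell and none rose, a share near the 12.0% of all genes that fell, with a median log2 fold change of -0.12. Hvcn1, a voltage-gated proton channel of phagocytes, fell from 103 ± 16.0 to 55.4 ± 2.76 CPM (log2 fold change -0.90, edgeR adjusted p = 0.00462). Pacc1, an acid-activated chloride channel, fell from 76.1 ± 4.99 to 48.5 ± 1.87 CPM (log2 fold change -0.65, edgeR adjusted p = 0.00307, SD, n = 3 each).

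Of 7 enzymes that make or turn over PI(3,5)P2, the lipid that opens mucolipins and TPC channels, 2 fell and none rose. Over all genes tested 12.0% fell and 10.5% rose. The median log2 fold change of the 7 was -0.25, against -0.0033 over all genes tested. Vac14, the scaffold of the kinase complex, fell from 61.5 ± 5.36 to 35.3 ± 1.60 CPM (SD, n = 3 each, log2 fold change -0.80, edgeR adjusted p = 0.00233). Pik3c3, which makes the precursor lipid, had a log2 fold change of -0.68 (by edgeR, adjusted p = 0.0347), but limma on log2(FPKM + 1) gave -0.13 (adjusted p = 0.364). It also did not pass in edgeR without any single library other than control replicate 2 (adjusted p = 0.0795 to 0.133), or with library name style as a covariate (adjusted p = 0.0761). The kinase Pikfyve itself had a log2 fold change of -0.10 (by edgeR, adjusted p = 0.462).

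None of 8 calcium and NAADP effectors, such as the NAADP binding proteins Jpt2 and Lsm12 and the calcineurin subunits, passed in edgeR or DESeq2, with 2 at an unadjusted p under 0.05 in edgeR. Of 7 MiT/TFE factors and regulators, which control lysosomal gene expression, Tfec rose by 0.51 (by edgeR, adjusted p = 0.0208) and Fnip1 fell by 0.42 on the log2 scale (by edgeR, adjusted p = 0.0137). Tfeb itself had a log2 fold change of 0.19 (by edgeR, adjusted p = 0.260). Tfec did not pass without any single library other than control replicate 2 (adjusted p up to 0.0817), nor Fnip1 without APPswe replicate 2 or 3 (0.0825 and 0.0812).

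Of 6 tested osteopetrosis genes besides Clcn7 and Ostm1, Plekhm1, an adaptor of lysosome fusion, fell by 0.65 on the log2 scale (by edgeR, adjusted p = 0.00150). Tnfsf11 (RANKL) rose by 2.60 (by edgeR, adjusted p = 0.000811) and Ctsk by 0.77 (by edgeR, adjusted p = 0.0259), the latter not passing without any one APPswe library (adjusted p = 0.0847 to 0.0934) or with library name style as a covariate (adjusted p = 0.0602). Tcirg1, the osteoclast subunit of the proton pump, had a log2 fold change of -0.05 (by edgeR, adjusted p = 0.726), so the osteopetrosis genes did not move one way.

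Of 9 common lysosomal genes, 7 fell and none rose, where 12.0% of all genes fell and 10.5% rose, with a median log2 fold change of -0.54. Ctsd and Ctsb, the cathepsins D and B, fell by 1.29 and 0.99, Lamp1 fell by 0.71, Npc1 by 0.62 and Lipa by 0.54 on the log2 scale (edgeR adjusted p of at most 0.00381). These 5 passed in all 16 alternatives. Beside the members that fell, 6 of 13 macrophage markers also fell and 1 rose, against the same 12.0% and 10.5% of all genes, with a median log2 fold change of -0.54. The defining marker Adgre1 had a log2 fold change of -0.54 (by edgeR, adjusted p = 0.0436) and Csf1r one of -0.07 (by edgeR, adjusted p = 0.832). The part of macrophage content in the lower levels of Mcoln2, Mcoln1, Clcn7 and Ostm1 was not tested.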

How the data were processed

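Bulk RNA sequencing of 3 control and 3 APPswe libraries was made by the authors with a SMARTER mRNA kit on the DNBseq platform, and the submitters' processing notes name the GRCm38 build. The aligner and counter are not given in the sources used here. The deposited read counts per gene are not normalized. The FPKM values were computed and rounded by the authors, and blank cells (397 or 716 genes, by the style of the library name, and no member) were set to 0. The table also holds the deposited log2 fold changes and p-values of the authors' own comparison of APPswe with control, which were not used. Counts were analysed with edgeR 4.0.16 in R 4.3.3: TMM, filterByExpr (13484 of 17830 genes kept), the quasi-likelihood test without covariates, and Benjamini-Hochberg adjustment over all genes tested. A gene passed with an adjusted p up to 0.05, and was called if its absolute log2 fold change was also at least 1. Standard errors are the fold change over the square root of F. Total counts of 17263757 to 18398392 per library set the precision.

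The members and lists were chosen with earlier results of these data known. Named were all members, list genes that passed (at most 5 a list, by size), the 5 genes nearest to Mcoln3, its neighbours in rank, and markers; others were named after their values were seen. Ca2 and Dct were not matched in the count table. Alternatives were DESeq2 1.42.0, its size factors, no TMM, 2 other count filters, a replicate block, library name style, each library left out, and limma 3.58.1 on log2(FPKM + 1) or log2(FPKM + 0.1), with a filter of 1 FPKM in 3 libraries or none. The tests were tested on simulated data. All 15 pairs of libraries differed beyond sampling noise. The smallest chi-square over its degrees of freedom, 1.57, was that of APPswe replicates 2 and 3. The next smallest was 5.945, for control replicates 1 and 3. Whether APPswe replicates 2 and 3 are repeats of one sample was not tested, and each library was kept as 1 replicate.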

Additional observations from a re-analysis of the deposited data

How the results depend on the processing

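Of the 9 members other than Mcoln3, between 2 and 6 passed when one library was left out in turn, and none was called at an absolute log2 fold change of 1 under any of the 16 alternatives. No member changed direction in them. For the fits without one library, groups that do not overlap in CPM leave little room for another outcome. With one library left out, the genes passing among all tested numbered 1024 to 6637, against 3036 with all libraries, and those in the 6 lists 10 to 25. The Mcoln3 log2 fold change lay between -5.28 and -4.31 with one library left out, and was -2.49 with limma on log2(FPKM + 1), with or without the filter, where the pseudocount is larger than the APPswe values. Replicate numbers showed no clear pairing of samples. The correlation of deviations from group means was 0.0694, -0.0338 and 0.143 for numbers 1, 2 and 3. Of 6 libraries, 3 correlated best with their own number. This check cannot exclude pairing, because control replicate 2 shifts the control mean from which the deviations were taken. With the replicate block 2021 genes passed, Tpcn2 and the list genes Npc2 and Tfec no longer did, and the Mcoln3 log2 fold change was -4.25. The cause of the lower counts without an APPswe library was not tested. At 15 to 18 counts per APPswe library, counting error limits the precision of the Mcoln3 level there.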
